A study of Homo sapiens with 9 samples.

Results

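The EGF receptor family and its ligands were followed here as 9 genes, taken by symbol from the 21619 genes of each count table: the receptors EGFR, ERBB2 and ERBB3 and the ligands AREG, EREG, HBEGF, TGFA, BTC and NRG1. All 9 were in the tables, and 8 had enough reads to be tested. BTC did not. The material was polysome-bound RNA of MDA-MB-231 cells, an established triple-negative breast cancer line, that carried ribosomal protein L10a joined to a green fluorescent protein (EGFP-L10a). These cells were placed in the mammary fat pad of mice either together with human bone marrow mesenchymal stem cells (MSC) at a 1:1 ratio (5 tumours, numbered 1, 6, 7, 10 and 15) or without MSC (4 tumours, numbered 9, 11, 12 and 13), and the tumours were collected after 3 weeks. Each tumour came from a different mouse. The cancer cells of both groups carried the tag, and the RNA was recovered from whole-tumour lysate with beads against the fluorescent protein, so RNA carried over from untagged cells can add to the counts. The strain and age of the mice and the number of MSC still present at collection were not given in the sources used here.

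EGFR, ERBB2, ERBB3 and ERBB4 are receptor tyrosine kinases that signal in pairs, mainly through the RAS-ERK and PI3K-AKT pathways. ERBB2 has no known ligand of its own, and ERBB3 has little kinase activity and depends on its partner. The ligands are made as membrane-anchored precursors and are released by metalloproteases. AREG, TGFA and EGF bind EGFR, HBEGF, EREG and BTC bind EGFR and ERBB4, and NRG1 binds ERBB3 and ERBB4. Triple-negative breast cancers lack amplified ERBB2 and often carry EGFR.

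Each library held 29749909 to 50639082 reads assigned to genes in the tumours with MSC, against 24616792 to 65275226 in those without. Vimentin (VIM) had 6918 to 12516 CPM (counts scaled by library total and TMM factor, edgeR's unit of expression) with MSC and 6742 to 8066 CPM without. No tumour had over 0.208 CPM of the estrogen receptor ESR1, 0.0608 CPM of the progesterone receptor PGR or 0.0202 CPM of E-cadherin (CDH1). Other luminal epithelial markers were present: KRT18 and KRT19 had 245 to 408 and 260 to 412 CPM with MSC, and 208 to 278 and 241 to 306 CPM without. EPCAM and GATA3 had 8.63 to 14.7 and 3.73 to 5.40 CPM with MSC, and 8.85 to 10.9 and 5.21 to 9.89 CPM without. RPL10A, the gene of the tagged ribosomal protein, had 1576 to 2609 CPM with MSC and 1793 to 2061 CPM without (edgeR adjusted p = 0.314). Its lowest level of all was in tumour 15 with MSC. Without that tumour RPL10A was called higher with MSC (log2 0.34, edgeR adjusted p = 0.0311). Tumour 15 with MSC stood apart for fibroblast genes: the matrix proteoglycan DCN had 18.9 CPM there and at most 0.207 CPM in any other tumour. The fibroblast genes were mixed. The collagen gene COL1A2 had 8.45 CPM in tumour 15, 1.21 to 2.64 CPM in the other tumours with MSC and 0.528 to 0.699 CPM without. Over all tumours its change passed (log2 2.41, edgeR adjusted p = 0.0104). No other tested fibroblast or MSC marker passed, with log2 changes over all tumours from -0.09 (ENG) to 3.37 (COL3A1). COL3A1 had 21.2 CPM in tumour 15, 0.527 to 1.55 CPM in the others with MSC and 0 to 0.981 CPM without. With tumour 15 set aside, DCN was at most 0.0806 CPM with MSC and 0.207 CPM without. Over all tumours the mean level of 13 fibroblast and MSC markers was 0.38 to 3.11 on the log2 CPM scale with MSC, highest in tumour 15. It was -0.07 to 0.67 without MSC (exact two-sided permutation p = 0.0873). The summed level of these markers was 611.5 to 844.0 CPM with MSC and 537.0 to 675.8 CPM without. Most of this sum was NT5E, high in every tumour (532 to 675 CPM with MSC, 461 to 602 CPM without, log2 0.25, edgeR adjusted p = 0.181). None of the 13 was at 0 in every tumour. The lists of 8 macrophage, 7 endothelial and 8 luminal epithelial markers differed by 0.28, 0.15 and 0.07 on the same scale (exact permutation p = 0.325, 0.706 and 0.460), again without a gene at 0 throughout. Among their genes CD68 was higher with MSC (log2 0.52, edgeR adjusted p = 0.0371), and the endothelial gene PECAM1 was lower, at 3.77 to 6.04 CPM with MSC and 6.79 to 9.62 CPM without (log2 -0.94, edgeR adjusted p = 0.00745). The other tested macrophage genes, CSF1R, CD14 and LYZ, had log2 changes of 0.01, -0.45 and -0.82. The other tested endothelial genes, KDR and TIE1, had -0.37 and 0.72, and none of these genes passed. The summed macrophage markers, mostly CD68, stood at 139.8 to 209.3 CPM with MSC and 96.1 to 139.4 CPM without. The endothelial markers stood at 7.21 to 12.4 CPM with MSC and 10.2 to 13.6 CPM without. The hosts were mice and the counts were made on a human genome build. The macrophage and endothelial lists therefore do not measure host cells directly. The mean of 8 mesenchymal markers of the line itself was higher with MSC by 0.32 (exact permutation p = 0.00794, the smallest this design can give). Of these, CD44 and AXL passed (log2 0.61 and 0.53, edgeR adjusted p = 0.00865 and 0.0137), and the log2 changes of ZEB1, SNAI2 and CAV1 were -0.09, 0.04 and 0.06. The part of these markers in the results on the family was not tested. The fits without tumour 15 cannot test it, because COL1A2 was above the tumours without MSC in the other tumours with MSC too.

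The sequences next to the transcription starts of EGFR, HBEGF and AREG are given first, because the group holds promoters of different build. They are RefSeq promoters on GRCh38.p14, each 300 bases long and reaching 250 bases upstream of the start. An entry was used for 7 of the 9 members (9 entries, 2 each for EGFR and TGFA). Capitals mark matches on either strand to the TATA box (TATAAA), the GC box bound by SP1 (GGGCGG), the AP-1 site (TGANTCA) and the core of the hypoxia response element (ACGTG), with 1 overlapping pair of matches, 2 GC boxes of HBEGF. The first 2 are the starts of EGFR, on the plus strand at chr7:55018767-55019066 and chr7:55109589-55109888. They are followed by HBEGF, the most abundant ligand (minus strand, chr5:140346554-140346853), and AREG (plus strand, chr4:74444886-74445185).
EGFR, upstream start: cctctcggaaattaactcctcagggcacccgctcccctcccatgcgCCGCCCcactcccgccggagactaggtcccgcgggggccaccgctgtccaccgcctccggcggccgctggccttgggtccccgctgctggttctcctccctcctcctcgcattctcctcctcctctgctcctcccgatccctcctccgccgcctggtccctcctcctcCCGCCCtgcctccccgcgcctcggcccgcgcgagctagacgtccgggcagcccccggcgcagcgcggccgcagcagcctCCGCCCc
EGFR, downstream start: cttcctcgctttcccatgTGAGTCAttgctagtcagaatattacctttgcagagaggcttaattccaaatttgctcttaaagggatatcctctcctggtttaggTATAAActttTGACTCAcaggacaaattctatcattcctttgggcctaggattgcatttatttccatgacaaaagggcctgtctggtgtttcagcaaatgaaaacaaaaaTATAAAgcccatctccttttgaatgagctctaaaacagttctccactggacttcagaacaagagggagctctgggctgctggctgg
HBEGF: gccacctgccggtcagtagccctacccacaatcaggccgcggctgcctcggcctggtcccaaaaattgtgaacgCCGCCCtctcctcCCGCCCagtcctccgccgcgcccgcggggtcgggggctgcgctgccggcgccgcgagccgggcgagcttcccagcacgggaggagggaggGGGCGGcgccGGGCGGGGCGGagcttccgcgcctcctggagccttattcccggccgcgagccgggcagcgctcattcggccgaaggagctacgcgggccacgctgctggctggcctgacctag
AREG: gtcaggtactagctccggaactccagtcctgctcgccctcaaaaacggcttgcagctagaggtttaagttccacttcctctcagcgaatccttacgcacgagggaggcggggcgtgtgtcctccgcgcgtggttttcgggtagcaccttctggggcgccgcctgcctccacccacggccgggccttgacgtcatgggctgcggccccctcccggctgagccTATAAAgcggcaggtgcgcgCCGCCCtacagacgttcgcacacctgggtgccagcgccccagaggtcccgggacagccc

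The upstream EGFR promoter was 75.3% G and C and held 3 GC boxes but neither a TATA box nor an AP-1 site. The downstream one was 42.0% G and C, with 2 TATA boxes, 2 AP-1 sites and no GC box. The HBEGF promoter resembled the upstream EGFR one in content (75% G and C, 5 GC boxes, no TATA box), whereas AREG had 1 TATA box and 1 GC box at 66.3% G and C. None of these 4 held the hypoxia element core. Among 35116 promoters of the same length, 11.5% held a TATA box, 45.0% a GC box, 7.7% an AP-1 site and 21.4% the hypoxia core, and the median G and C content was 58.7%. Counts were given per gene, so reads from the 2 EGFR starts could not be separated. A match of letters in these windows is a description of the sequence and not a bound site.

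Of the family, EGFR was 1.87-fold higher in tumours with MSC, and no other member passed the test. ERBB3 and HBEGF were also higher on average but missed the threshold, and NRG1 was at nearly the same level in both groups. Of the 8 tested members, 1 rose and 0 fell (edgeR's quasi-likelihood test over 13458 genes, called at an adjusted p under 0.05 after Benjamini-Hochberg). Across all genes tested, 7.78% were called, 4.18% higher and 3.60% lower. At an unadjusted p under 0.05, 4 members were higher (EGFR, ERBB2, ERBB3 and HBEGF) and 0 lower, where 24.6% of all genes passed and 12.8% were higher. At an adjusted p under 0.10, 3 members were higher (EGFR, ERBB3 and HBEGF) and 0 lower, beside 13.7% of all genes in either direction and 7.10% higher. The median log2 change of the tested members was 0.34, with 6 above 0, against a median of 0.01 over all genes, of which 51.1% were above 0. Without a library of total RNA in this comparison, a change in RNA abundance and a change in ribosome association cannot be told apart, and in bulk tumours fewer cells of a type and less RNA per cell cannot be told apart either.

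**Figure D1:**
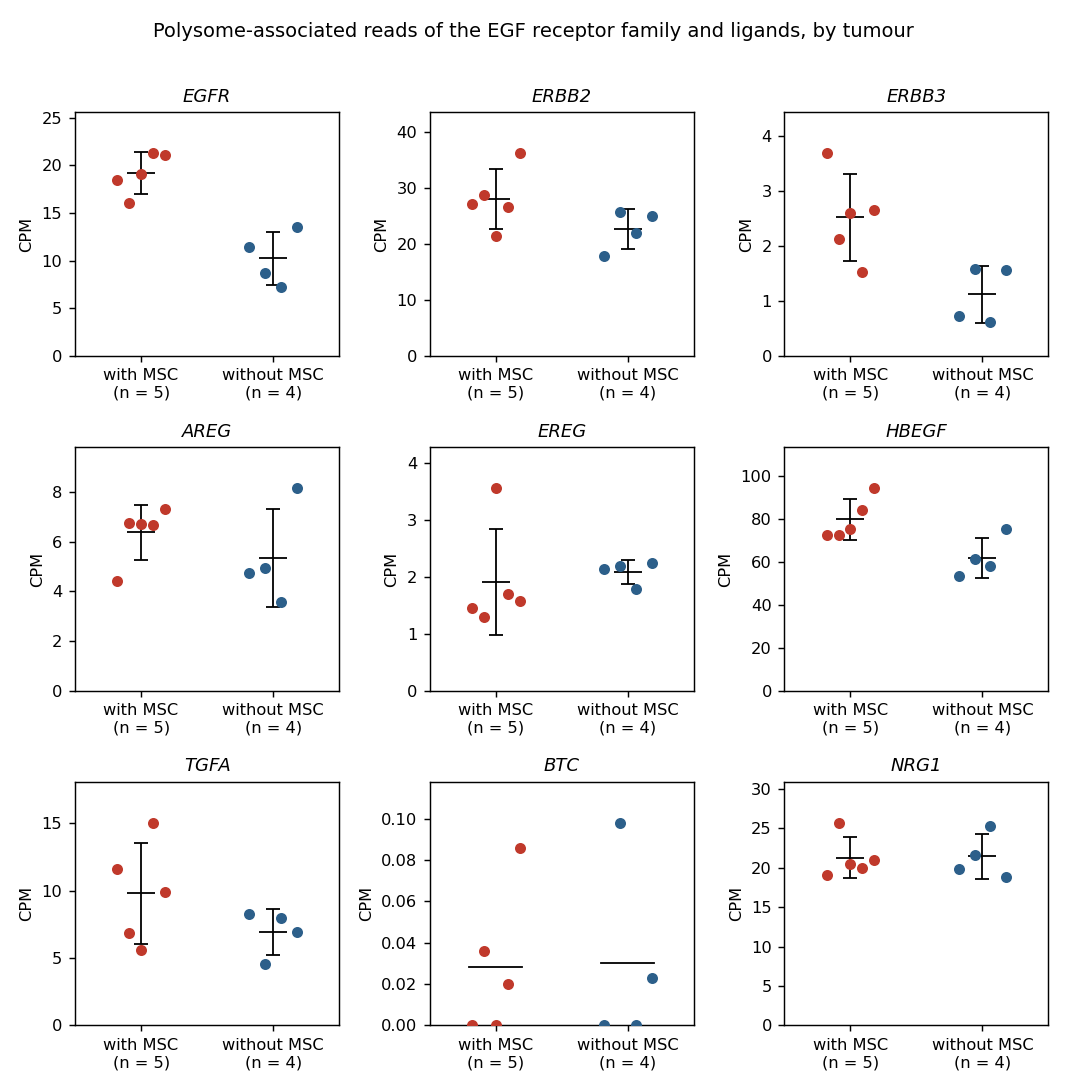
Level of each of the 9 members in every tumour, in CPM, with MSC (red, n = 5) and without MSC (blue, n = 4); horizontal lines are group means and bars the SD (means only for BTC). EGFR is the member whose groups do not overlap, with 16 to 21.3 CPM with MSC and 7.20 to 13.5 CPM without.

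EGFR, the receptor of EGF, TGFA and AREG, had 18.5, 16, 19.1, 21.3 and 21.1 CPM in tumours 1, 6, 7, 10 and 15 with MSC, against 11.4, 8.73, 7.20 and 13.5 CPM in tumours 9, 11, 12 and 13 without. The lowest tumour with MSC (tumour 6) was thus above the highest without (tumour 13). Of all genes tested, 5.13% had groups separated in this direction and 4.87% in the other. Means were 19.2 ± 2.18 CPM with MSC (SD, n = 5) and 10.2 ± 2.82 CPM without (SD, n = 4), a log2 change of 0.90 ± 0.17 (SE), or 1.87-fold with a 95% interval of 1.47 to 2.38 (edgeR adjusted p = 0.00498). By p-value it stood at place 71 of the 13458 genes. The counts behind these values were 446 to 1057 reads per tumour with MSC and 174 to 752 without. Tumour 15, with the fibroblast genes, had nearly the same EGFR level as tumour 10, and without tumour 15 the log2 change was 0.86 (edgeR adjusted p = 0.0112). Its exons overlap those of the antisense gene EGFR-AS1 by 186 bases in GENCODE 29. The library kit does not mark strand, so reads of the pair cannot be told apart there.

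ERBB2, the partner receptor without a ligand, had 27.1, 28.8, 21.4, 26.6 and 36.2 CPM in tumours 1, 6, 7, 10 and 15 with MSC, against 17.8, 25.7, 21.8 and 25.0 CPM in tumours 9, 11, 12 and 13 without. The groups overlapped, with tumour 15 the highest of all 9 and tumour 9 the lowest. The log2 change was 0.31 ± 0.15 (1.24-fold, 95% interval 1.00 to 1.54; edgeR adjusted p = 0.196). It was 0.20 without tumour 15, 0.21 without tumour 9 and 0.12 with offsets for GC content and transcript length (edgeR adjusted p = 0.441, 0.440 and 0.555). ERBB2 shares exonic sequence with its neighbours MIEN1 (571 bases) and PGAP3 (194 bases) on the opposite strand, both of which have counts of their own, so reads there may be lost or misassigned.

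ERBB3, the neuregulin receptor that signals through its partner, was low: 3.69, 2.12, 2.59, 1.53 and 2.66 CPM in tumours 1, 6, 7, 10 and 15 with MSC, and 0.714, 1.57, 0.620 and 1.56 CPM in tumours 9, 11, 12 and 13 without. The groups touched at one point, where tumour 10 with MSC (1.53 CPM) lay just under tumours 11 and 13 without. The log2 change of 1.17 ± 0.37 (2.25-fold, 95% interval 1.32 to 3.82) was the largest among the tested members and did not pass (edgeR adjusted p = 0.0544). It rests on 59 to 140 reads per tumour with MSC and 15 to 68 without. ERBB3 crossed the threshold without tumour 13 (log2 1.38, edgeR adjusted p = 0.0288), with no filter on low counts and in DESeq2 (adjusted p = 0.0458 and 0.0209). It did not pass in the other 16 of 19 alternative fits, where the log2 change was as low as 0.97 and the adjusted p as high as 0.176, both without tumours 15 and 12 together. Without tumour 1 or tumour 9 the edgeR adjusted p was 0.156 or 0.151, and with limma-voom 0.149.

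**Figure D2:**
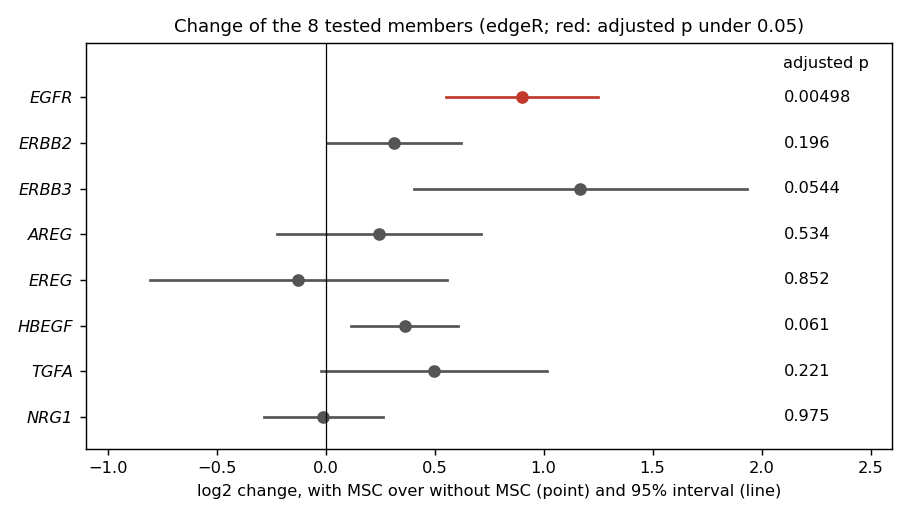
Log2 change with MSC over without MSC for the 8 tested members, with 95% intervals that are not adjusted for the number of genes and with edgeR adjusted p-values at the right. EGFR alone (red) is under 0.05, at 0.00498, with ERBB3 at 0.0544 and HBEGF at 0.0610.

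HBEGF, the heparin-binding ligand of EGFR and ERBB4, was the ligand with the most reads. Its level was 72.4, 72.6, 75.2, 84.5 and 94.6 CPM in tumours 1, 6, 7, 10 and 15 with MSC, against 53.7, 61.4, 57.9 and 75.3 CPM in tumours 9, 11, 12 and 13 without. Only tumour 13 among those without MSC reached the range of the tumours with MSC. The means were 79.9 ± 9.61 CPM with MSC and 62.1 ± 9.35 CPM without (SD, n = 5 and n = 4), a log2 change of 0.36 ± 0.12 (1.29-fold, 95% interval 1.09 to 1.53; edgeR adjusted p = 0.0610). This passed without tumour 13 (log2 0.47, edgeR adjusted p = 0.0127), in DESeq2 (0.0377), with a filter of 5 CPM (0.0440) and on thinned counts (0.0490). In the other 16 of 20 alternative fits it did not pass, with edgeR adjusted p = 0.183 without tumour 12, 0.172 without tumour 9 and 0.314 without tumours 15 and 12 together (log2 0.26).

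TGFA, a ligand of EGFR, had 11.6, 6.85, 5.60, 15 and 9.88 CPM in tumours 1, 6, 7, 10 and 15 with MSC, against 8.25, 4.54, 7.98 and 6.95 CPM in tumours 9, 11, 12 and 13 without. Tumours 1, 10 and 15 with MSC were above every tumour without, and tumours 6 and 7 lay among them. The log2 change of 0.50 ± 0.25 (95% interval of the fold 0.987 to 2.02) did not pass (edgeR adjusted p = 0.221) and fell to 0.29 without tumour 10.

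AREG, EREG and BTC lie next to one another on chromosome 4 with EPGN, in the order EPGN, EREG, AREG, BTC among protein-coding genes. AREG, amphiregulin, had 4.43, 6.74, 6.71, 6.69 and 7.31 CPM in tumours 1, 6, 7, 10 and 15 with MSC, against 4.74, 4.94, 3.56 and 8.17 CPM in tumours 9, 11, 12 and 13 without. The highest AREG level of all was in a tumour without MSC (tumour 13), and the log2 change was 0.24 ± 0.22 (edgeR adjusted p = 0.534). It was 0.52 without tumour 13 and 0.09 without tumour 12. The build hg19 carries a near-identical second copy of AREG, and reads placed equally well at both may have been left out as non-unique, so the level of AREG is uncertain.

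EREG, epiregulin, had 1.45, 1.29, 3.56, 1.69 and 1.57 CPM in tumours 1, 6, 7, 10 and 15 with MSC, against 2.14, 2.19, 1.78 and 2.25 CPM in tumours 9, 11, 12 and 13 without. All tumours with MSC other than tumour 7 were below the 4 without, and tumour 7 was above them. The log2 change was -0.12 ± 0.33 (edgeR adjusted p = 0.852) and -0.48 without tumour 7 (edgeR adjusted p = 0.345). BTC, betacellulin, had 0 to 3 reads per tumour in both groups. A count of 0 allows up to 0.0769 CPM in tumour 1 and 0.0685 CPM in tumour 7 with MSC, and up to 0.0460 CPM in tumour 9 and 0.122 CPM in tumour 12 without (3 reads over the gene counts of the library, counting error only), so no fold is given.

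NRG1, the ligand of ERBB3 and ERBB4, had 19.1 to 25.7 CPM with MSC and 18.8 to 25.4 CPM without, with means of 21.3 ± 2.59 CPM with MSC and 21.4 ± 2.86 CPM without (SD, n = 5 and n = 4). The groups covered almost the same range. The fold was 0.993 with a 95% interval of 0.822 to 1.20 (edgeR adjusted p = 0.975). Its small change had either sign depending on the libraries used, between -0.090 and 0.075 on the log2 scale when 1 tumour was left out.

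Levels of different genes were compared per kilobase of each gene's longest GENCODE 29 transcript. On this scale HBEGF was far above the rest, at 33.5 ± 4.03 CPM per kilobase with MSC and 26 ± 3.92 without (SD). It made up 72.3 to 76.6% of the summed per-kilobase level of the 6 ligands in tumours with MSC and 70.2 to 73.7% in those without. It was followed with MSC by ERBB2 (5.68), AREG (5.14), NRG1 (3.59), TGFA (2.27) and EGFR (1.96), all in CPM per kilobase. Neighbours among these 5 had overlapping ranges over the 9 tumours. ERBB3 (0.425) and EREG (0.414 CPM per kilobase) came last. Over the 9 tumours the range of ERBB3 was below that of EGFR (0.105 to 0.623 and 0.733 to 2.17 CPM per kilobase), and that of EREG, 0.280 to 0.771, overlapped both. The transcript length matters here: with the union of all annotated exons as the length, AREG was above ERBB2 (3.87 and 2.71 CPM per kilobase with MSC) and TGFA above NRG1 (1.97 and 1.88). With the longest transcript as the length, EGFR took 20.8 to 29% of the summed per-kilobase level of the 3 receptors with MSC and 13.9 to 23.8% without. ERBB2 took 64.5 to 74.6% with MSC and 73.7 to 84.1% without. These shares depend on the length too. With the union of exons EGFR and ERBB2 were closer, at 1.53 and 2.71 CPM per kilobase with MSC and 0.817 and 2.19 without.

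**Figure D3:**
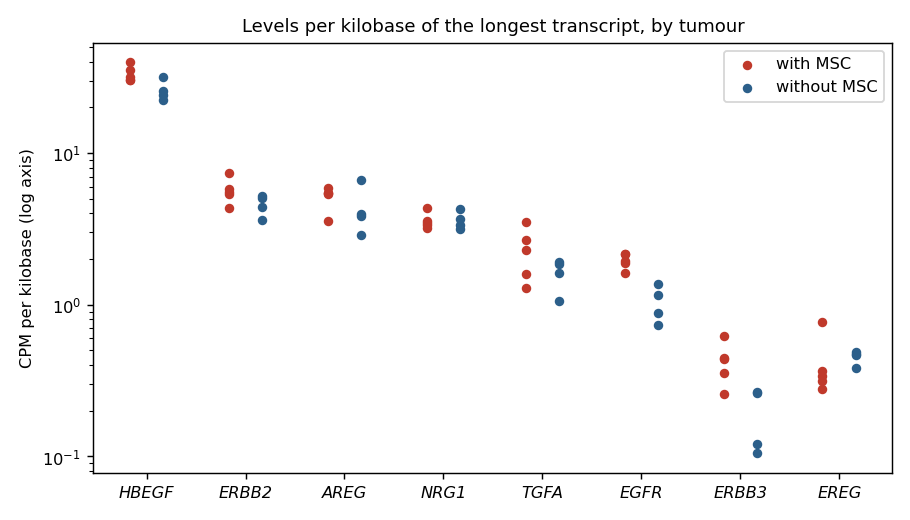
Level per kilobase of the longest transcript for the 8 tested members in each tumour, on a log axis, with MSC (red) left of without MSC (blue), ordered by the mean with MSC. HBEGF stands above all others, at 33.5 CPM per kilobase on average with MSC, while ERBB3 and EREG lie under 1.

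The other genes of the family were at or near the limit of detection. ERBB4, EPGN and NRG3 had too few reads to be tested, and EGF, NRG2 and NRG4 averaged under 1 CPM in both groups. None of these 3 passed. NRG2, a neuregulin, had the smallest p of them, with 0.494 ± 0.314 CPM with MSC and 0.942 ± 0.552 CPM without (SD; edgeR adjusted p = 0.383).

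Among 9 genes that release the ligands or control their release, 1 rose and 0 fell, with 7 changes above 0 and a median log2 change of 0.33, where 4.18% of all genes were called higher and 51.1% had changes above 0. The gene that rose was ADAM9, a membrane metalloprotease for which HBEGF is a reported substrate, with 78.2 ± 12.1 CPM with MSC and 50.1 ± 11.6 CPM without (SD, n = 5 and n = 4; log2 0.64 ± 0.14, edgeR adjusted p = 0.0128). Its groups did not overlap, though by little, at 65.9 CPM at the lowest with MSC and 64.6 CPM at the highest without. ADAM10 and ADAM17, the main proteases for BTC and EGF and for AREG, TGFA and HBEGF, had log2 changes of 0.55 ± 0.18 and 0.33 ± 0.17 and did not pass (edgeR adjusted p = 0.0596 and 0.236). Without tumour 12 the call of ADAM9 was lost (log2 0.52, edgeR adjusted p = 0.0559).

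Of the 13 tested negative regulators of the receptors and the 12 genes of receptor trafficking, 0 passed in either direction, with medians of 0.06 and -0.06. At an unadjusted p under 0.05, 1 regulator was higher and 1 lower, and 0 trafficking genes were higher and 3 lower, where 24.6% of all genes passed, 12.8% as higher. ERRFI1, a feedback inhibitor that binds the EGFR kinase, had 1099 CPM with MSC and 1161 CPM without on average (log2 -0.08 ± 0.13, edgeR adjusted p = 0.738). The smallest p in these lists belonged to STUB1, a ubiquitin ligase (log2 0.36 ± 0.13, edgeR adjusted p = 0.0997), and to RAB5A, a GTPase of early endosomes (-0.30 ± 0.11, edgeR adjusted p = 0.0930). Of 20 alternative fits, STUB1 and RAB5A passed in the one without tumour 13 only (edgeR adjusted p = 0.00845 and 0.0195).

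Among 24 adaptors and kinases that act below the receptors, 1 rose and 0 fell, a share near the 4.18% of all genes called higher, with a median of 0.07. The one called was the kinase SRC, with 16.3 ± 1.31 CPM with MSC and 11.8 ± 1.51 CPM without (SD; log2 0.46 ± 0.14, edgeR adjusted p = 0.0454). The value lay close to the threshold. When 1 tumour was left out the log2 change was 0.40 to 0.54, and 1 of the 9 fits passed, the one without tumour 13. With all tumours it missed when scaled by library size only, with no filter, in limma-voom and on thinned counts (adjusted p = 0.0961, 0.0564, 0.0563 and 0.0512), at log2 changes of 0.45 to 0.46. With the GC and length offsets it was 0.24 (edgeR adjusted p = 0.251). The phosphatase PTPN11, which links the receptors to RAS, had 204.7 ± 17.2 CPM with MSC and 203.5 ± 24.4 CPM without (SD; log2 0.01 ± 0.11).

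Genes that commonly follow ERK activity moved both ways: 2 of 24 rose and 3 fell, with 16 changes below 0 and a median of -0.18. Over all genes 4.18% were called higher and 3.60% lower, and 51.1% had changes above 0. At an unadjusted p under 0.05, 3 genes of the list were higher and 9 lower, where 24.6% of all genes passed, 12.8% as higher. At an adjusted p under 0.10, 2 were higher and 7 lower, beside 13.7% of all genes in either direction and 7.10% higher. Those that fell were the ERK phosphatase DUSP6 (221.3 ± 44.3 CPM with MSC and 338.6 ± 59.9 CPM without, SD; log2 -0.61 ± 0.14), the transcription factor ETV1 (-0.54 ± 0.12) and the feedback inhibitor SPRY1 (-0.64 ± 0.17), with edgeR adjusted p = 0.0164, 0.0123 and 0.0264. The genes that rose were MYC (0.47 ± 0.11) and the cytokine LIF (0.55 ± 0.14), with edgeR adjusted p = 0.0132 and 0.0224. Each of the 5 missed the threshold when some single tumours were left out, at changes of similar size. ETV1 was -0.48 without tumour 9 (edgeR adjusted p = 0.0531) and MYC 0.43 without tumour 12 (0.0658). DUSP6 was -0.56 to -0.54 without tumours 1, 9 or 12, LIF 0.46 to 0.56 without tumours 9, 10, 12 or 15, and SPRY1 -0.60 to -0.53 without tumours 1, 6, 9 or 12. With all tumours, LIF missed under the GC and length offsets (0.39, edgeR adjusted p = 0.0615) and SPRY1 in limma-voom (-0.56, adjusted p = 0.0684). With offsets for GC content and transcript length, 11 of the 85 tested genes of all the pathway lists fell, where the uncorrected fit had 3. Of the 13458 genes tested, 502 fell with these offsets and 484 in the uncorrected fit.

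**Figure D4:**
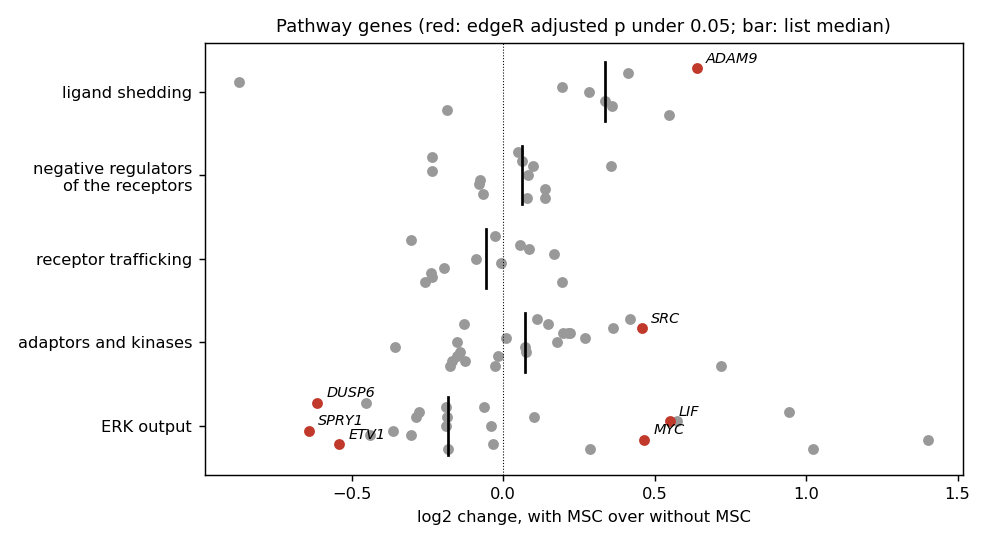
Log2 change with MSC over without MSC of the tested genes in 5 lists around the receptors; each point is a gene, red points passed the test and black bars are list medians. ADAM9, SRC, MYC and LIF lie to the right of 0, and DUSP6, ETV1 and SPRY1 to the left.

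The genes whose profiles over the 9 tumours were closest to that of EGFR, among 11866 genes with a mean of at least 1 CPM, were PNMA2, ZNF703 and GOLIM4. Their log2 CPM, centred on each gene's mean, differed from that of EGFR by 0.11, 0.13 and 0.14 (root mean square), while the SD of EGFR itself was 0.57. The closest to ERBB3 were SH2D3A, HIST1H1E and ADAMTSL4, at 0.25, 0.27 and 0.30 beside an SD of 0.82. HIST1H1E is one of a family of near-identical histone genes, so its count is uncertain.

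Single libraries and settings moved the members little where EGFR was concerned. It passed in each of the 9 fits without 1 tumour, with log2 changes of 0.77 (without tumour 12) to 1.06 (without tumour 13) and edgeR adjusted p = 0.000841 to 0.0198. It also passed in the other 11 settings tried, the lowest change being 0.73 without tumours 15 and 12 together (edgeR adjusted p = 0.0230).

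**Figure D5:**
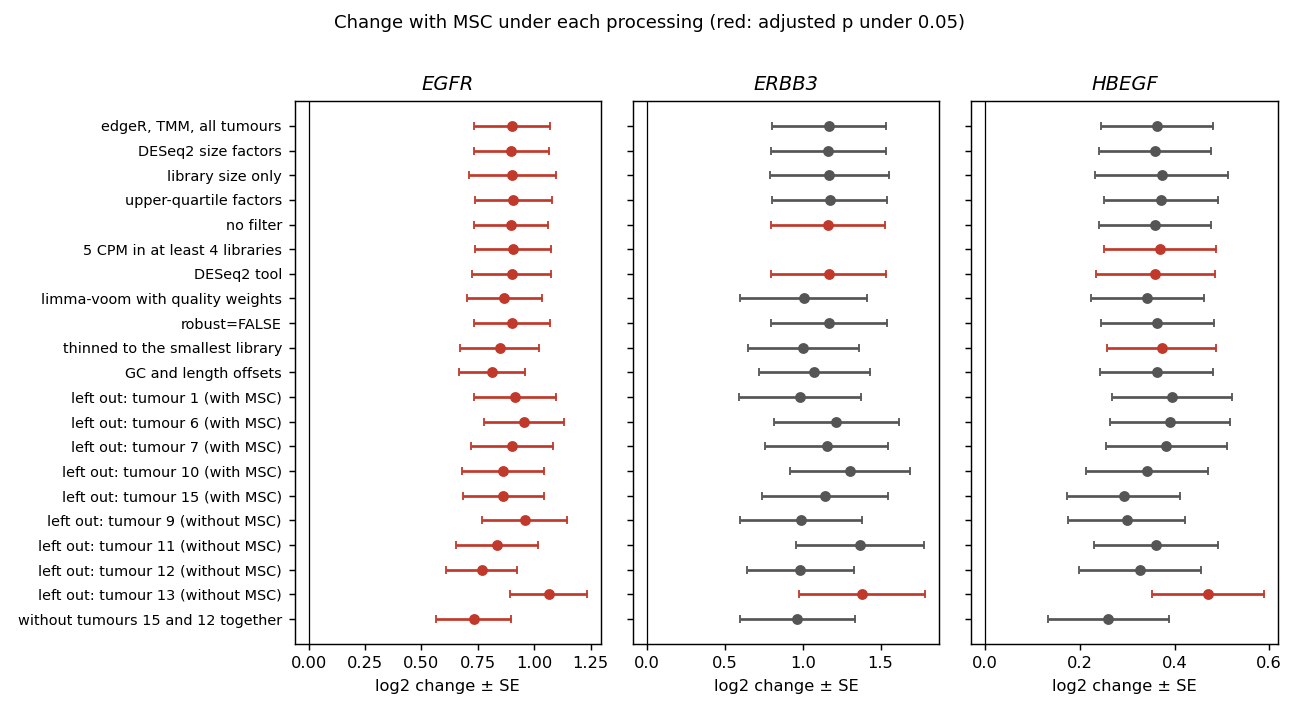
Log2 change ± SE of EGFR, ERBB3 and HBEGF with MSC over without MSC in the fit reported and under each alternative, red where the adjusted p is under 0.05. EGFR is red throughout, between 0.73 and 1.06, whereas ERBB3 and HBEGF are red in 3 and 4 alternatives; ERBB3 has no value under the filter of 5 CPM.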

How the data were processed

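RNA bound to tagged ribosomes was sequenced for 9 tumours with a TruSeq RNA kit, which keeps no strand, per the labels' protocols. The authors deposited raw counts of reads per gene symbol, 1 table per tumour. CASAVA 1.8.1, TopHat 1.4.0, HTSeq and the build hg19 appear in the submitters' processing notes. The annotation, the HTSeq settings and any step against mouse reads are not stated there, and mouse RNA may contribute to the counts of conserved genes. The last 5 lines of each table hold reads not assigned to a gene: in no feature, ambiguous, of low quality, not aligned or not unique. They amounted to 10.2 to 12.1% of its counts and took no part in the totals or tests.

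Differences were tested in edgeR 4.0.16 under R 4.3.3 (filterByExpr, TMM, glmQLFit with robust=TRUE, glmQLFTest), with Benjamini-Hochberg adjustment over every tested gene and a threshold of 0.05. The SE is the log2 change over the square root of F. A prior count of 2 entered log2 CPM, and a pseudocount of 0.05 CPM the marker means. Same-group libraries differed beyond sampling noise in every pair (chi-square per degree of freedom at least 24). No batch is named in the labels. The test was tried on simulated counts. Transcript lengths and exon overlaps came from GENCODE 29 and promoters from RefSeq GRCh38.p14, which is not the build of the counts, and coordinates were not carried between builds.

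The genes named are the 9 members, the called genes of each pathway list or else its gene of smallest p, the 3 closest profiles of EGFR and of ERBB3, and RPL10A. ADAM10, ADAM17, ERRFI1, PTPN11 and the single markers were picked once their values were known. The members and lists were chosen with earlier results of these data known. As alternatives, the scaling was changed (DESeq2 or upper-quartile factors, or library size alone), the filter was dropped or set to 5 CPM in at least 4 libraries, and DESeq2 1.42.0, limma-voom (limma 3.58.1) with quality weights and robust=FALSE were run. Counts were thinned to the smallest library, the threshold was set to 0.10, and each tumour, and tumours 15 and 12 together, were left out. Offsets for GC content and log length (splines with 4 degrees of freedom, 88.3% of tested genes matched) were added after seeing the data.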

Additional observations from a re-analysis of the deposited data

Results flagged for a closer look

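In 2 of the 18 sets of values that a gene's group forms, 1 tumour stood far from the others of its group. Chance gives this in about 1 of 20 such sets. AREG had 4.43 CPM in tumour 1 with MSC, where the other 4 tumours with MSC had 6.69 to 7.31 CPM. EREG had 3.56 CPM in tumour 7 with MSC, where the other 4 had 1.29 to 1.69 CPM. Neither gene passed the test with or without that tumour.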

How the results depend on the processing

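No paired analysis was possible because the groups share no replicate numbers. EGFR was called higher in all 20 alternative fits, and 0 members were called lower in any. The count of members called higher was 1 in the fit reported, 2 with no filter, with the filter of 5 CPM and after thinning, 3 in DESeq2 and at a threshold of 0.10 (where 7.10% of all genes were higher), and 1 to 3 when 1 tumour was left out, with 3 without tumour 13. NRG1, at -0.01, had the opposite sign with limma-voom (0.029), after thinning (0.013), without tumours 15 and 12 together (0.078) and in some fits without 1 tumour (-0.090 to 0.075). Its adjusted p was at least 0.741 throughout. Of the pathway genes, 4 were higher and 3 lower in the fit reported. DESeq2 gave 7 and 8, library size only 5 lower, no filter 5 lower, the filter of 5 CPM 7 lower, GC and length offsets 2 and 11, tumours 15 and 12 left out together 1 and 1, and leaving out 1 tumour 0 to 8 higher and 0 to 10 lower. Over all genes the reported 563 higher and 484 lower became 856 and 790 in DESeq2, 289 lower with limma-voom, 201 and 101 without tumours 15 and 12 together, and 151 to 985 higher and 94 to 863 lower without 1 tumour, lowest without tumour 12 and highest without tumour 13. With the GC and length offsets 416 of all genes were higher and 502 lower. The cause of these differences was not tested. The endothelial marker difference of 0.15 was -0.068 without tumour 15 and -0.010 without tumour 13, in a range of -0.068 to 0.28 when 1 tumour was left out. ERBB3, EREG and BTC rest on few reads, so changes of moderate size in them may have been missed.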
